A study of Mus musculus with 12 samples.

Results

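Comp, Cilp, Cilp2, Chad, Sox9, Acan and Thbs4 are genes best known from cartilage and tendon, and their transcripts were followed in injured mouse hearts. These 7 genes of the 38293 in the count tables were matched by symbol, and all 7 were found in both tables. They were selected on their increase in WT IR over WT sham hearts, in which Comp and Cilp were among the genes with the largest change. The members' values in that comparison are therefore a description with no p-value, and nothing is read from their calls there. The Zeb2 cTg IR against Zeb2 WT IR comparison, made on other mice, is the one in which they were tested.

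RNA-seq was performed on hearts of 12 mice, 3 per group, all on the C57BL/6J background by their labels. The WT sham and WT IR groups were wild-type mice, and IR (ischaemia-reperfusion) stands for 1 h of ligation of the left anterior descending coronary artery followed by reperfusion, with tissue taken on day 14. Zeb2 cTg mice carried a Zeb2 transgene in the Rosa26 locus that a Cre recombinase under the cardiomyocyte promoter αMHC switches on, and Zeb2 WT mice were their littermates without overexpression. Both of these groups received IR and were also sampled on day 14, and the methods give an age of 8 to 9 weeks. The labels name the left ventricle, the design text the infarct with its border zone and the methods the remote zone, so the part of the heart that was sampled is not settled. Zeb2 itself was at 59.82 ± 6.43 CPM (counts per 1000000 counts, SD, n = 3) in Zeb2 WT IR and at 57.03 ± 1.59 CPM (SD, n = 3) in Zeb2 cTg IR, a log2 difference of -0.07 (SE 0.12, edgeR's quasi-likelihood test, adjusted p = 0.750). The overexpression was thus not visible in these counts, and this group is named by its label, as the libraries labelled Zeb2 cTg IR.

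Library totals ranged from 20215781 to 36816818 counts, and genes outside the mitochondrial genome held 5706340 to 11618213 of them. 1 CPM, after scaling by TMM factors (trimmed mean of M-values) within each table, stood for 17.2 to 37.8 counts. CPM are compared between libraries, and levels of different genes are compared per kb of exon. Both tables were scaled on their own, so levels set side by side across them carry no test.

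Cartilage matrix is built from collagen fibrils, the proteoglycan aggrecan and proteins that link them. Comp (cartilage oligomeric matrix protein) and Thbs4 (thrombospondin 4) belong to the pentameric thrombospondins, which bind collagens. Cilp, a cartilage intermediate layer protein that binds transforming growth factor-β, has the homologue Cilp2. Acan encodes aggrecan, Chad the integrin-binding leucine-rich protein chondroadherin, and Sox9 the transcription factor that directs chondrocyte formation. In the infarcted heart, fibroblasts become activated and lay down a collagen scar, and matrix genes of cartilage and tendon are known to be expressed there. Thbs4 is also known from cardiomyocytes under load, where it acts in the endoplasmic reticulum.

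The genes lie on separate chromosomes (GRCm38), except for Comp and Cilp2, both on chr8, and Chad and Sox9, both on chr11. Comp is at chr8:70373558-70382066 on the plus strand and Cilp2 at chr8:69880369-69887687 on the minus strand. Cilp is at chr9:65265180-65280605 on the plus strand. Chad is at chr11:94565047-94569127 and Sox9 at chr11:112782224-112787760, both on the plus strand. Acan is at chr7:79053483-79115099 on the plus strand and Thbs4 at chr13:92751590-92794818 on the minus strand. All are protein-coding, and none shares exons with another annotated gene on either strand. Their exons hold between 49.3% GC (Sox9) and 65.5% GC (Cilp2).

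The RefSeq promoter table (GRCm38.p6) held 5 of the 7 genes, with none for Comp and Sox9. The 250 bases before the start are shown for Cilp and Thbs4, the 2 members that are set against each other within each library further on. Capitals mark TATAA, the core of a TATA box, where it lies wholly between 40 and 20 bases before the start in the direction of the gene.
Cilp (chr9:65264930-65265179, plus strand): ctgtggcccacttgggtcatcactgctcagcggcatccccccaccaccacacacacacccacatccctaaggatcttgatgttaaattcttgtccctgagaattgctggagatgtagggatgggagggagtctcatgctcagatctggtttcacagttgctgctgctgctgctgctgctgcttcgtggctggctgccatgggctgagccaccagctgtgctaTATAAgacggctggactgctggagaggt
Thbs4 (chr13:92794819-92795068, minus strand): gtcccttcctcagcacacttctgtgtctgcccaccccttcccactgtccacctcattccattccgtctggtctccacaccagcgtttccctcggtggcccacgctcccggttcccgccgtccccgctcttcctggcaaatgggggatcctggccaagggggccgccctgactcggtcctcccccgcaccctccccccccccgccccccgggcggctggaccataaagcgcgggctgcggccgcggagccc
The Cilp window held TATAA from 28 to 24 bases before the start, as did that of Chad, and those of Thbs4, Cilp2 and Acan did not, while 3.38% of all 32851 promoters did. The Thbs4 window held 70.8% GC and the Cilp window 56.0%, against a median of 52.4% over all promoters. CACCTG, an E-box sequence that ZEB factors bind, and the SOX core letters ACAAAG and ACAATG were searched on both strands over 300 bases, from 250 before to 50 after the start. CACCTG occurred once, in Thbs4 at bases 44 to 49 after the start, and was in 20.2% of all promoters. ACAAAG and ACAATG were in none of the 5 windows and in 18.7% and 12.6% of all promoters. The RefSeq starts did not all match the gene annotation used for the positions. Bases after the Acan start were not found in an annotated Acan transcript. The Cilp2 window (chr8:69887393-69887642) lay inside the gene span given above. The TATAA search was added after the windows had been seen, and none of these matches was tested as a binding site.

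All 7 members had higher means in WT IR than in WT sham hearts, and Cilp, Comp and Thbs4 reached the upper part of all tested genes. Cilp per kb was above 97.7% of tested genes in WT IR hearts, Comp above 93.5% and Thbs4 above 88.0%. In WT sham hearts the same genes were above 49.1%, 7.12% and 17.0%.

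Comp was at 0.378, 0.552 and 0.524 CPM in the 3 WT sham hearts and at 21.1, 28.3 and 60.9 CPM in the 3 WT IR hearts. The groups were far apart, and the log2 fold change was 6.22 (SE 0.51), rank 2 among the tested genes with a positive fold change. Thbs4 went from 0.984, 0.981 and 1.75 CPM to 11.6, 20.7 and 38.1 CPM, a log2 fold change of 4.31 (SE 0.47). In both genes WT IR replicate 3 was the highest library and replicate 1 the lowest of its group.

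Cilp had the highest mean of the members in each group, per kb of exon. It was at 6.58, 6.44 and 5.94 CPM in WT sham and at 65.3, 137 and 214 CPM in WT IR hearts, a log2 fold change of 4.45 (SE 0.39). Its homologue Cilp2 had 4, 0 and 4 counts in WT sham and 24, 32 and 56 counts in WT IR hearts, which was a mean of 0.128 ± 0.118 CPM against 1.23 ± 0.746 CPM (SD, n = 3). The log2 fold change of Cilp2 was 3.43 (SE 0.72), and 2.65 without WT sham replicate 2. Per kb, Cilp exceeded Cilp2 by 88.3 to 164 times in the WT IR libraries.

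The proteoglycan and its neighbours stayed scarce. Acan had 3, 1 and 0 counts in WT sham and 22, 27 and 22 counts in WT IR hearts, a log2 fold change of 3.71 (SE 0.52) that was 4.93 without WT sham replicate 1. Its 3 WT IR libraries were at 0.687 to 0.820 CPM. Chad had 0 counts in every WT sham library and 3, 5 and 4 counts in WT IR hearts. Against a limit of 3 counts over the sham group, Chad was at least 3.16-fold higher, and it was too low to enter the fit.

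Sox9 was detected in uninjured hearts and differed least. It was at 0.946, 1.23 and 2.27 CPM in WT sham and at 2.84, 4.21 and 6.12 CPM in WT IR hearts, with a log2 fold change of 1.63 (SE 0.34). The highest sham library lay below the lowest injured one by less than 1 CPM.

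**Figure D1:**
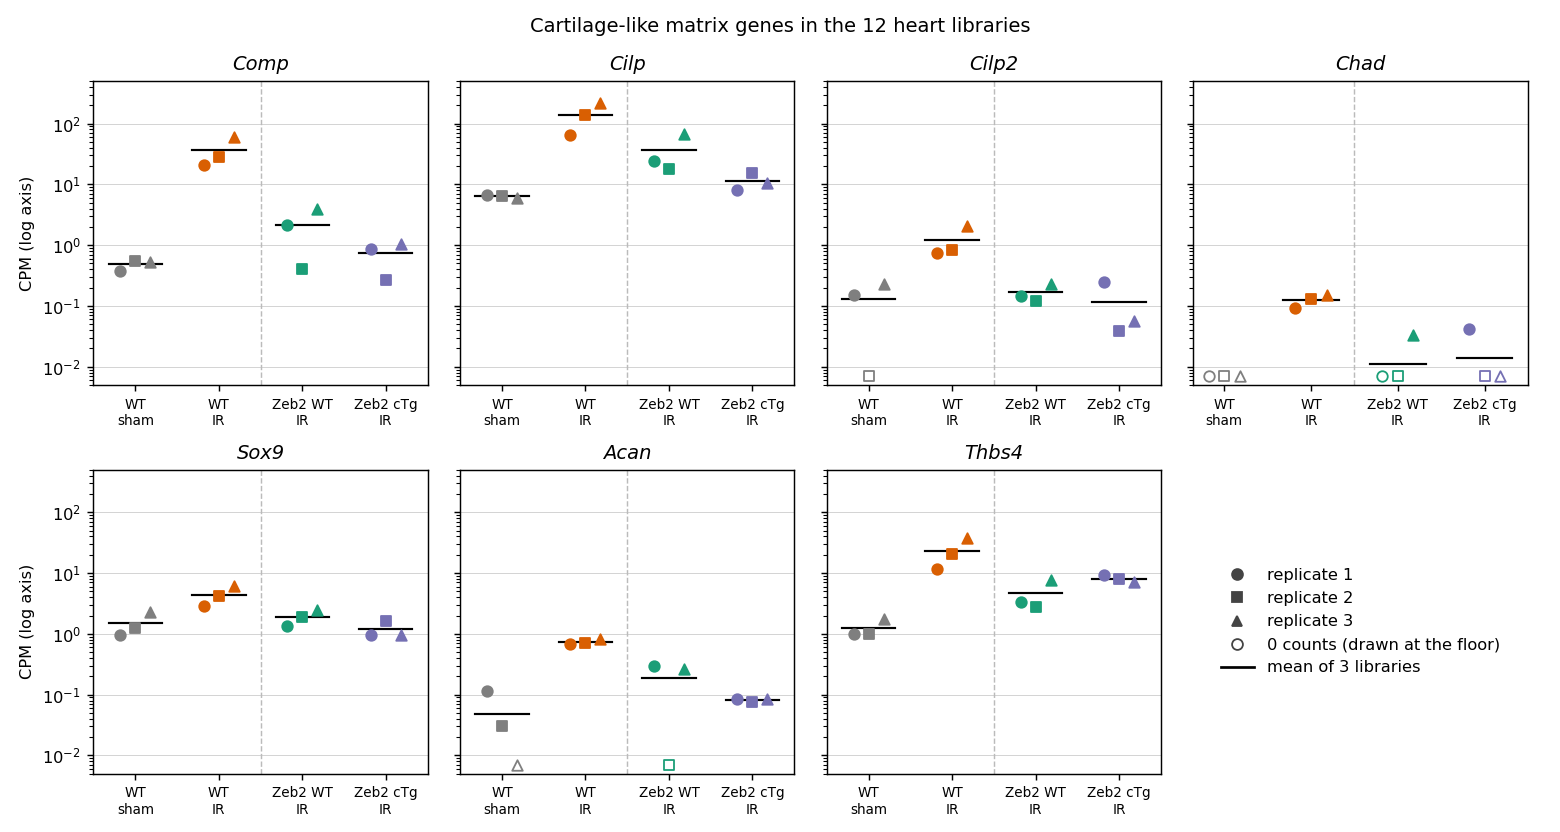
CPM of each of the 7 genes in every library on a log axis, with the mean of each group as a line, the symbol shape for the replicate number and open symbols for 0 counts. The dashed line separates the 2 tables, and Comp in WT IR hearts (21.1 to 60.9 CPM) lies above every other library.

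6 of the 7 members entered the WT fit and all 6 of these were called higher, with groups that did not overlap. Of all 13756 genes tested, 11.0% were called higher and 9.74% lower, and 20.5% and 19.3% had groups that did not overlap in these directions (adjusted p under 0.05, edgeR's quasi-likelihood test). Since the members were chosen by this comparison, nothing is read from their count. Cilp2 and Acan passed the filter on low counts only through the injured hearts, and 3 members (Cilp, Sox9 and Thbs4) had at least 10 counts in every library.

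The same 3 WT IR libraries were ordered alike in other measures. Replicate 3 was highest and replicate 1 lowest for Comp, Cilp, Cilp2, Chad, Sox9, Acan and Thbs4. The summed level of 10 activated and scar fibroblast markers (Postn, Cthrc1, Fap, Ddah1, Meox1, Lox, Ltbp2, Ccn5, Sfrp2 and Col8a1) was 383, 742 and 1182 CPM in replicates 1 to 3, against 61.8 to 113 CPM in WT sham. Macrophage markers summed to 176, 272 and 340 CPM (114 to 127 CPM in WT sham), and cardiomyocyte markers to 63562, 54088 and 49224 CPM (63865 to 70630 CPM in WT sham). All 10 scar fibroblast and all 6 macrophage markers were called higher, with 5 of 8 resting fibroblast and 2 of 3 valve markers, and 3 of 12 cardiomyocyte and 1 of 3 tested epicardial markers were called lower. No endothelial marker was called, and smooth muscle and skeletal muscle markers had 1 in each direction. Of 4 tenocyte markers (Scx, Tnmd, Mkx and Kera) only 1, Scx, entered the fit, and it was not called. The sum of the 4 was 0.815 to 1.36 CPM in WT sham and 1.59 to 2.57 CPM in WT IR hearts. Tnmd, too low to test, had no counts in WT sham and was at 0.564 ± 0.423 CPM in WT IR hearts (SD, n = 3). In tissue RNA, more cells of a type and more RNA per cell cannot be told apart, and which cells made the transcripts was not measured.

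Set against the scar markers within each library, the members differed among themselves. Comp was 0.336% to 0.893% of the scar marker sum in WT sham and 3.82% to 5.49% in WT IR hearts. Cilp was 5.84% to 10.4% in sham and within 17.0% to 18.5% in the 3 injured hearts, although their marker sums differed widely. Sox9 went the other way, from 0.839% to 3.35% in sham to 0.517% to 0.742% in WT IR. Comp per kb was below Thbs4 in each sham library, with ratios of 0.426, 0.624 and 0.333, and above it in each injured one, with ratios of 2.02, 1.52 and 1.77. These shares and ratios do not depend on the scaling of the library.

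Chondrocyte markers were scarce in every group. 10 of them (Col2a1, Col9a1, Col9a3, Col11a2, Matn1, Matn3, Hapln1, Snorc, Cnmd and Ucma) summed to 1.25 to 1.38 CPM in WT sham and 0.794 to 1.45 CPM in WT IR hearts. Col11a2 made up most of the sham sum, with 0.989 ± 0.0726 CPM in WT sham against 0.321 ± 0.0465 CPM in WT IR hearts (SD, n = 3). The means of the other 9 summed to 0.314 CPM in WT sham and 0.824 CPM in WT IR hearts, and 7 of these 9 had a higher mean after injury, at no more than 12 counts per library and too low to test. The sum of all 10 was 0.648 to 1.06 CPM in Zeb2 WT IR and 0.754 to 0.899 CPM in the libraries labelled Zeb2 cTg IR. Col11a2 was at 0.341 ± 0.214 CPM and 0.610 ± 0.238 CPM in these groups (SD, n = 3). The means of the other 9 summed to 0.507 CPM and 0.196 CPM. Of these 9, 5 had a lower mean with the Zeb2 cTg IR label and 2 a higher one, at no more than 8 counts per library. Snorc was at 0 in all 12 libraries, and Col2a1, the main collagen of cartilage, had at most 2 counts in any library. Osteoblast markers (Bglap, Ibsp, Sp7 and Dmp1) summed to at most 0.0809 CPM. Only Col11a2 of the chondrocyte markers passed the filter on low counts.

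Of a list of 29 other cartilage matrix and chondrogenic genes, 13 entered the WT fit, 6 rose and 2 fell after injury, with a median log2 fold change of 0.54 against 0.01 over all genes. Matn2, a matrix adaptor protein also made outside cartilage, rose by 1.87 on the log2 scale (SE 0.21, edgeR adjusted p = 0.00208). Fmod, fibromodulin of collagen fibrils, rose by 4.53 (SE 0.51, edgeR adjusted p = 0.00222). Col11a1, a fibrillar collagen chain that scar fibroblasts also make, rose by 5.40 (SE 0.62, edgeR adjusted p = 0.00229) from 0.0457 ± 0.0402 CPM to 2.43 ± 1.22 CPM (SD, n = 3). Its low sham level makes that size uncertain. Prelp, another leucine-rich matrix protein, rose by 1.28 (SE 0.18, edgeR adjusted p = 0.0040). The 2 that fell, named after their values were seen, were Col11a2 by -1.60 (SE 0.26) and Sox6, a partner of Sox9, by -0.44 (SE 0.13).

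The other thrombospondins all rose after injury. The log2 fold changes were 1.96 for Thbs1 (SE 0.30), 1.91 for Thbs2 (SE 0.27) and 1.65 for Thbs3 (SE 0.34), with edgeR adjusted p-values of 0.00486, 0.00407 and 0.0120. All were smaller than the values of Comp and Thbs4. Those 2 were selected on their increase in this comparison, so nothing is read from that order. Of 17 tendon and fibrous matrix genes, 14 entered the fit and 13 rose, with a median log2 fold change of 2.16. Col8a1 (2.66, SE 0.26), Lum (2.30, SE 0.28), Col12a1 (3.92, SE 0.52) and Col5a2 (2.19, SE 0.33) had the smallest p-values. The tendon regulator Scx was at 1.10 ± 0.275 CPM in WT sham and 1.29 ± 0.181 CPM in WT IR hearts (SD, n = 3).

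Partners and regulators of the members moved in part. Of 10 hyaluronan and link partners of aggrecan, 4 entered the fit and the versican gene Vcan rose by 1.48 (SE 0.26). Of 9 proteases that cut aggrecan or COMP with their inhibitor, Timp3 (0.84), Adamts12 (1.02) and Adamts5 (0.46) rose and Adamts7, which cuts COMP, fell by 0.66 on the log2 scale. Of 12 receptors, Itgav (0.66), Itgb5 (0.77) and Cd47 (0.40) rose and Itga7 fell by 0.34. Of 18 growth factors and signals, 14 entered the fit and 8 rose, among them Sfrp2 (5.05), Tgfb3 (2.10), Tgfb2 (1.42) and Igf1 (1.32). None of 9 endoplasmic reticulum factors tied to Thbs4 was called, the smallest adjusted p-value being 0.0509 for Pdia3 (0.41, SE 0.13). All calls are by edgeR's quasi-likelihood test.

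In the Zeb2 comparison the means of the members lay in both directions. With the Zeb2 cTg IR label, Comp, Cilp and Sox9 had lower means than in Zeb2 WT IR, and Thbs4 had a higher mean. None of the 4 members that entered the fit passed an adjusted p of 0.05. 3 of them had an unadjusted p under 0.05 by edgeR's test, as did 3134 of all 13018 genes tested. DESeq2 and limma-voom also called none of the members. Of all 13018 genes tested, 2.14% were called higher and 1.51% lower (278 and 196 genes), and 13.4% and 12.8% had groups that did not overlap in these directions.

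Cilp was at 24.5, 18.2 and 66.7 CPM in Zeb2 WT IR and at 8.17, 15.1 and 10.6 CPM in the libraries labelled Zeb2 cTg IR. Groups did not overlap, though 18.2 and 15.1 CPM were close. The log2 fold change was -1.69 (SE 0.44, edgeR's quasi-likelihood test, adjusted p = 0.0661), so the difference stayed just short of the threshold. Leaving out Zeb2 WT IR replicate 2 gave -2.01 (adjusted p = 0.0408) and leaving out Zeb2 cTg IR replicate 2 gave -1.95 (adjusted p = 0.0270), which are past it. Without Zeb2 WT IR replicate 3, the highest library, the value was -0.92 (adjusted p = 0.174).

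Comp was at 2.16, 0.405 and 3.93 CPM in Zeb2 WT IR and at 0.880, 0.267 and 1.04 CPM in the libraries labelled Zeb2 cTg IR. Groups overlapped because Zeb2 WT IR replicate 2, with 10 counts, was as low as the other group. The log2 fold change was -1.56 (SE 0.68, edgeR's quasi-likelihood test, adjusted p = 0.203), and -0.81 without Zeb2 WT IR replicate 3. Sox9 was at 1.36, 1.90 and 2.43 CPM against 0.964, 1.64 and 0.955 CPM, a log2 fold change of -0.68 (SE 0.32, adjusted p = 0.222 by the same test), with groups that overlapped.

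Thbs4 was at 3.37, 2.71 and 7.76 CPM in Zeb2 WT IR and at 9.26, 8.09 and 7.02 CPM in the libraries labelled Zeb2 cTg IR. Only the lowest of the latter lay under the highest of the former. The log2 fold change was 0.80 (SE 0.34, edgeR's quasi-likelihood test, adjusted p = 0.190). Without Zeb2 WT IR replicate 3, the highest of its group, it was 1.41 (SE 0.22, adjusted p = 0.0343 by the same test). With any other library left out it was 0.54 to 0.90, with adjusted p-values of 0.151 to 0.425 by that test.

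Cilp2, Acan and Chad were too low for the fit. Cilp2 had 4, 3 and 7 counts in Zeb2 WT IR and 6, 1 and 2 counts in the libraries labelled Zeb2 cTg IR. Acan had 8, 0 and 8 counts against 2, 2 and 3 counts, and Chad had 1 count in 1 library of each group. A difference was not detectable at this depth for these genes.

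**Figure D2:**
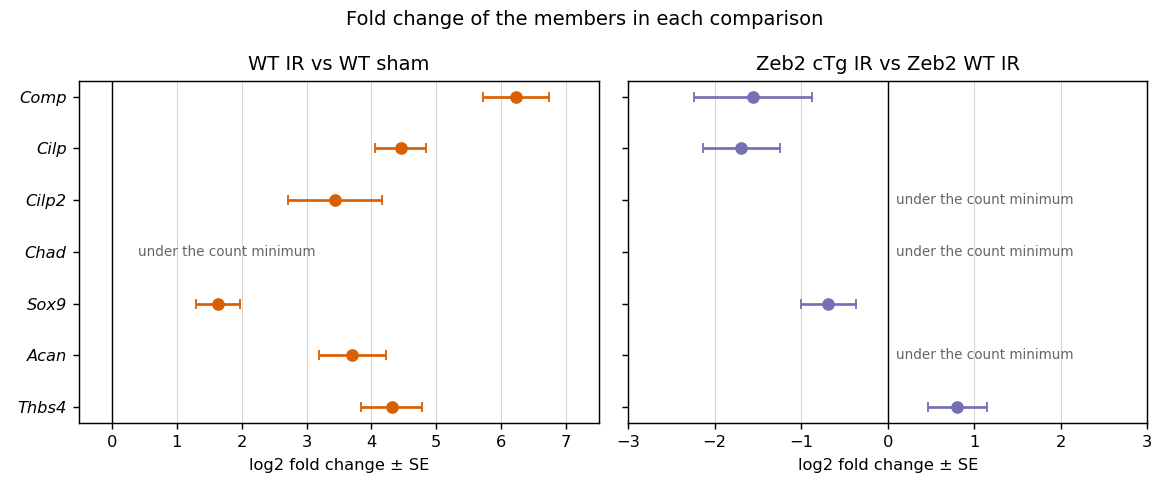
Log2 fold change with its SE for each member in WT IR against WT sham (left) and in Zeb2 cTg IR against Zeb2 WT IR (right), 3 libraries per group. Comp (-1.56), Cilp (-1.69) and Sox9 (-0.68) lie below 0 on the right and Thbs4 (0.80) above it, and none of these 4 passed the adjusted threshold.

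Cilp and Thbs4 were also set against each other within each library. Per kb of exon, Cilp was 5.61, 5.18 and 6.65 times Thbs4 in the Zeb2 WT IR libraries and 0.683, 1.44 and 1.17 times in those labelled Zeb2 cTg IR. Their mean log2 ratio differed by -2.46, and -2.69 to -2.15 with any 1 library left out. In the other table the ratio was 5.18, 5.08 and 2.63 in WT sham and 4.37, 5.13 and 4.34 in WT IR hearts, so that the ratio ranged from 2.63 to 6.65 over the 9 libraries of the other groups, above all 3 labelled Zeb2 cTg IR. The ratio does not depend on library scaling. It was chosen after the values had been seen, and the two-sided exact permutation test in the Zeb2 table gave p = 0.1, the smallest that 3 against 3 libraries allow.

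**Figure D3:**
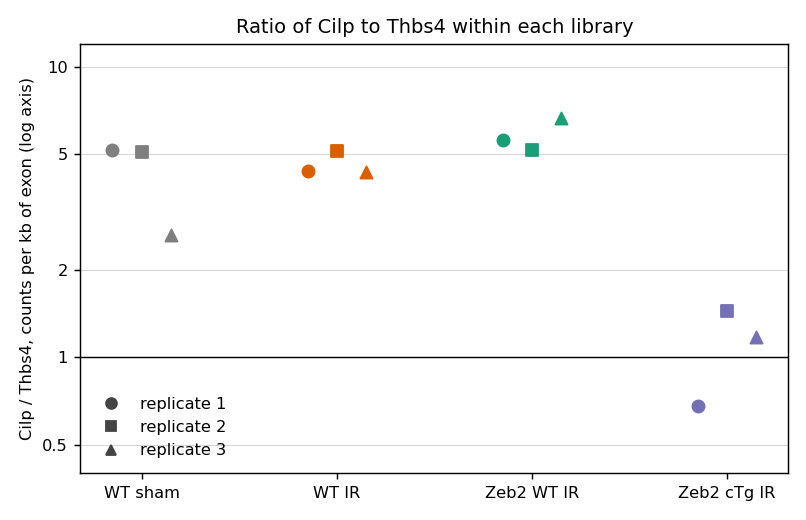
Ratio of Cilp to Thbs4 in counts per kb of exon for each of the 12 libraries on a log axis, with the line at 1 marking equal levels. The libraries labelled Zeb2 cTg IR lie at 0.683 to 1.44 and the other 9 at 2.63 to 6.65.

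Scar fibroblast markers moved with Cilp in this comparison. Their sum was 235, 168 and 504 CPM in Zeb2 WT IR, against 57.8, 136 and 85.1 CPM where the label was Zeb2 cTg IR, and 4 of the 10 markers were called lower. Resting fibroblast, macrophage, endothelial and chondrocyte markers had no call in either direction, while 2 of 12 cardiomyocyte markers, the smooth muscle marker Acta2 and the valve marker Wif1 were called higher and the skeletal muscle marker Acta1 was called lower. Valve markers summed to 4.998 to 5.63 CPM in Zeb2 WT IR and 11.5 to 17.9 CPM in the other group. Wif1 alone was at 1.34 ± 0.175 CPM and 12.8 ± 3.44 CPM (SD, n = 3), so the higher valve sum rests on this gene. As a share of the scar marker sum, Cilp was 10.4% to 13.2% in Zeb2 WT IR and 11.1% to 14.2% in the other group, ranges that overlapped. Comp was 0.241% to 0.922% and 0.196% to 1.52%, which overlapped. Thbs4 was 1.44%, 1.61% and 1.54% in Zeb2 WT IR and 16.0%, 5.94% and 8.25% in the libraries labelled Zeb2 cTg IR, with no overlap (two-sided exact permutation test, p = 0.1, the smallest possible). Thbs4 CPM itself overlapped between these groups and the scar marker sum did not, so this share also reflects the lower sum. The scar markers were chosen with earlier results of these data known. Sox9 was 0.483% to 1.13% against 1.12% to 1.67%, which overlapped. Cardiomyocyte markers summed to 63807 to 69686 CPM in Zeb2 WT IR and 70691 to 74633 CPM in the other group. The part of cell composition in these values was not tested.

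**Figure D4:**
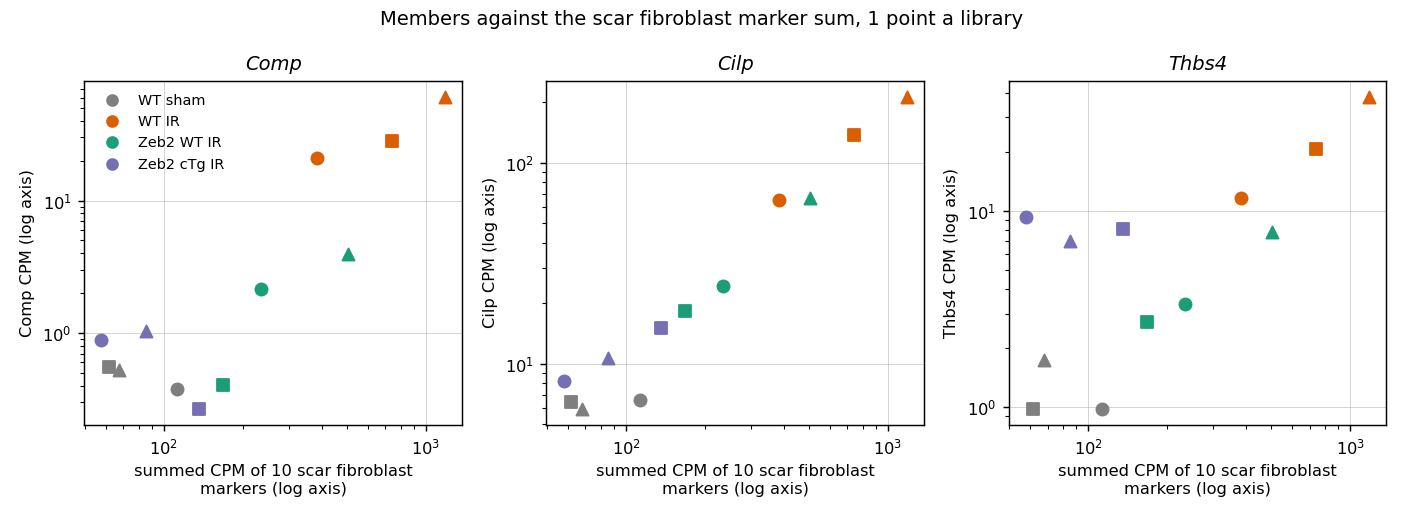
CPM of Comp, Cilp and Thbs4 against the summed CPM of 10 scar fibroblast markers, both on log axes, with 1 point per library coloured by group and shaped by replicate. For Thbs4 the 3 libraries labelled Zeb2 cTg IR (7.02 to 9.26 CPM at marker sums of 57.8 to 136 CPM) stand above the WT sham libraries of similar sums (0.981 to 1.75 CPM). The sham hearts were uninjured and lie in the other table, scaled on its own, so this carries no test.

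Among the lists of related genes only Wif1 was called higher, and the other calls were lower. Of 11 other cartilage genes that entered this fit, Fmod was called lower (-3.62, SE 0.75, edgeR adjusted p = 0.0346). It was at 2.51 ± 1.97 CPM in Zeb2 WT IR and at 0.181 ± 0.209 CPM with the Zeb2 cTg IR label (SD, n = 3). The low level of Fmod in the latter and its wide spread make that size uncertain. Of 14 tendon and fibrous matrix genes, 5 were called lower, among them Col3a1 (-1.88, SE 0.34), Tnc (-2.83, SE 0.53), Lum (-1.31, SE 0.25) and Col14a1 (-1.45, SE 0.28), with edgeR adjusted p-values of 0.0213, 0.0240, 0.0257 and 0.0283. No other thrombospondin was called: Thbs1 was at -0.92 (SE 0.39), Thbs2 at -0.72 (SE 0.29) and Thbs3 at -0.02 (SE 0.34). The aggrecan-cutting protease Adamts5 was called lower (-0.58, SE 0.12, edgeR adjusted p = 0.0330), and no receptor, hyaluronan partner or endoplasmic reticulum factor was called. Among growth factors and signals, Sfrp2 (-3.32, SE 0.31), a Wnt modulator that is also one of the scar markers, and the insulin-like growth factor Igf1 (-1.01, SE 0.20) were called lower. Wif1, a secreted Wnt inhibitor, was called higher, from 1.34 ± 0.175 CPM to 12.8 ± 3.44 CPM (SD, n = 3, log2 fold change 3.25, SE 0.25, edgeR adjusted p = 0.000505).

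**Figure D5:**
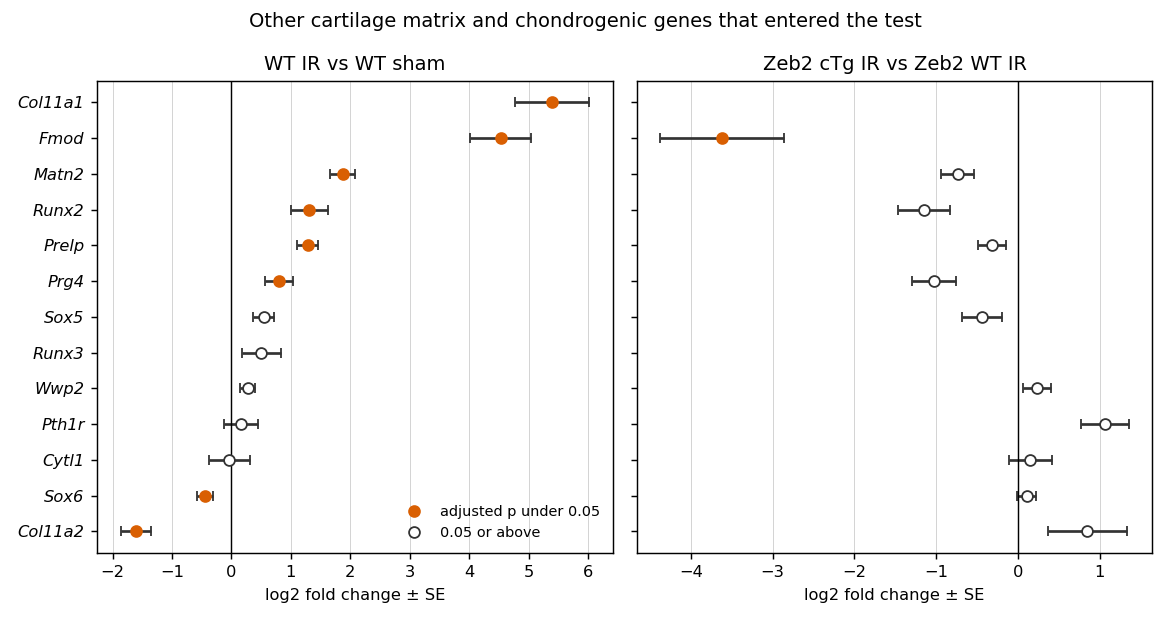
Log2 fold change with its SE of the other cartilage matrix and chondrogenic genes that entered the test, 13 in WT IR against WT sham (left) and 11 in Zeb2 cTg IR against Zeb2 WT IR (right). Filled points passed an adjusted p of 0.05, 8 on the left and Fmod alone on the right.

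The order of the members by level per kb changed between groups. In WT IR hearts it was Cilp (32.6 ± 17.5 CPM per kb, SD, n = 3), Comp (12.4 ± 7.15), Thbs4 (7.13 ± 4.10), Sox9 (1.06 ± 0.398), Cilp2 (0.285 ± 0.173), Acan (0.0992 ± 0.00942) and Chad (0.0744 ± 0.0169). Each library kept that order, although the ranges of Cilp and Comp, and of Comp and Thbs4, overlapped between libraries. In WT sham hearts Thbs4 (0.376 ± 0.134 CPM per kb) and Sox9 (0.358 ± 0.169) were alike within their spread and above Comp (0.163 ± 0.0314). In Zeb2 WT IR hearts Cilp (8.57 ± 6.21) was followed by Thbs4 (1.40 ± 0.835), Comp (0.730 ± 0.594) and Sox9 (0.459 ± 0.130), the last 3 of which overlapped with a neighbour. With the Zeb2 cTg IR label, Cilp (2.66 ± 0.823) and Thbs4 (2.47 ± 0.341) overlapped, as did Sox9 (0.287 ± 0.0952) and Comp (0.246 ± 0.137).

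Both injured wild-type groups differed in how much Comp they held. Comp was at 21.1 to 60.9 CPM in WT IR and at 0.405 to 3.93 CPM in Zeb2 WT IR, and its share of the scar marker sum was 3.82% to 5.49% against 0.241% to 0.922%. Cilp was 17.0% to 18.5% of that sum in WT IR and 10.4% to 13.2% in Zeb2 WT IR, a smaller gap. These groups lie in separate tables, where table and mouse line cannot be told apart, so no test was made.

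The genes nearest in pattern to Cilp and Comp were taken over the 12 libraries. Likeness was the root mean square difference of log2 CPM centred within each table, among 12002 genes. Since the nearest genes were chosen on these same libraries, their fold changes are a description with no p-value. Nearest to Cilp were Angptl7 (0.29), Ltbp2 (0.35), which is one of the scar markers, and Col12a1 (0.37), against a median of 1.71 over all genes. Nearest to Comp were Col8a2 (0.65), Angptl7 (0.82) and Ltbp2 (0.83), against a median of 2.30, so that Angptl7 and Ltbp2 were near both. Col8a2, a short-chain collagen, was at 5.94 (SE 0.43) after injury and at -2.93 (SE 0.60) in the Zeb2 comparison.

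Sox9 was nearest to Crispld1 (0.23), Anxa1 (0.24) and Mmrn1 (0.25), with a median of 0.75 over all genes. Thbs4 was nearest to Frzb (0.69), Nkd2 (0.81) and Nppa (0.82), with a median of 1.57, so its nearest genes were less alike to it than those of Cilp and Sox9. Nppa, the atrial natriuretic peptide of stressed cardiomyocytes, was at 3.57 (SE 0.34) after injury and at 2.43 (SE 0.42) in the Zeb2 comparison. Nkd2 was at 2.42 (SE 0.43) and -0.10 (SE 0.35). Frzb, a Wnt-binding protein of cartilage, was at 3.05 (SE 0.32) after injury and at -0.68 (SE 0.37) in the Zeb2 comparison. Among the members themselves, the Comp and Cilp patterns differed by 0.90 and the Cilp and Thbs4 patterns by 0.93, and Thbs4 stood at rank 60 in likeness to Cilp.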

How the data were processed

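The authors aligned reads with STAR (2.4.2a, per the labels) and counted them on genes (HTSeq 0.6.1 per the labels, GENCODE M4 per the methods), from stranded single-end libraries. The deposited values are raw read counts, not normalized, in 2 tables (38293 genes by 6 libraries, 3 per group), and all columns were used. The labels name an mRNA kit and the methods a total RNA kit, which could change the share of reads from unprocessed RNA. Replicates are separate animals per the design text.

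Each table was fitted alone in R 4.3.3 with edgeR 4.0.16: TMM scaling, filterByExpr (minimum count 10, minimum total 15), the quasi-likelihood test, and p-values adjusted over all genes tested (Benjamini-Hochberg, threshold 0.05). CPM are TMM-scaled and CPM per kb were divided by the exon length in GENCODE M21 (GRCm38). Symbols came from M21, with Wisp2 matched as Ccn5 through RefSeq synonyms. Ratios within libraries were tested by exact permutation in scipy 1.17.1. The scripts were tested on simulated data with known changes. Alternatives were other size factors (RLE, cardiomyocyte markers), mitochondrial genes left out, other filters and thresholds, a replicate block, a GC correction, DESeq2 1.42.0, limma-voom (3.58.1) and each library left out.

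The 7 members and all lists were chosen with earlier results of these data known. The genes named are all members, Zeb2, at most 4 called genes per list and comparison by smallest p, and the 3 genes nearest in pattern to each member tested in both tables. The older DESeq of the methods was not run.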

Additional observations from a re-analysis of the deposited data

How the results depend on the processing

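In the WT comparison, by which the members were chosen, nothing is read from their calls. The 6 members called stayed 6 under most alternatives and were 7 with no filter on low counts. They were 3 with at least 10 counts in every library (which leaves fewer members to test). At an adjusted p under 0.01 they were 4, and with 1 library left out 4 to 6. In the Zeb2 comparison 0 members were called in the reported fit, 1 with size factors from cardiomyocyte markers (Cilp), 3 with no filter on low counts, 3 at an unadjusted p under 0.05, and 0 to 1 with 1 library left out. Of the members with a fold change (6 in the WT and 4 in the Zeb2 comparison), none changed direction under the alternatives run. The replicate block gave 2 (Comp and Cilp, lower) and the replicate block with GC correction 1 (Comp). The numbers mark different animals, and same-numbered libraries of the Zeb2 table correlated at 0.134, 0.260 and -0.0425 in their deviations, with Zeb2 WT IR replicate 1 closest to Zeb2 cTg IR replicate 3 (0.330), so the numbers were not taken as pairs. In the WT table these correlations were -0.0343, 0.0119 and -0.0146. Over all genes, 2859 were called in the WT comparison (1519 higher, 1340 lower), 4703 with cardiomyocyte size factors (4492 higher, 211 lower), 699 at an adjusted p under 0.01, 4973 unadjusted and 421 to 4980 with 1 library left out. In the Zeb2 comparison 474 were called (278 higher, 196 lower), 1553 with no filter, 1813 with the replicate block, 800 with the GC correction, 735 with both, 1027 with DESeq2, 62 at an adjusted p under 0.01, 3134 unadjusted and 98 to 2419 with 1 library left out. With cardiomyocyte size factors the Zeb2 split was 155 higher and 354 lower, and the median log2 fold change of all genes was 0.35 in the WT and -0.19 in the Zeb2 comparison. Relative to that shift Thbs4 (0.60) stayed above and Cilp (-1.87) below the median gene. Fold changes followed GC content over genes (Spearman rho -0.29 in WT, 0.55 in Zeb2, genes not being independent), and the correction gave -2.10 for Comp (adjusted p = 0.0811), -1.85 for Cilp (0.0564) and 0.58 for Thbs4 (0.349) by edgeR's quasi-likelihood test. The causes of these changes were not tested. Cilp2, Acan and Chad, with at most 8 counts per library in the Zeb2 table, were limited by depth.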
